A study of Homo sapiens with 36 samples.

Results

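The nuclear-encoded subunits of the mitochondrial respiratory chain were followed in the ribosome footprints and RNA of human breast epithelial cells and of skin fibroblast lines. They were taken by gene symbol: NDUFA, NDUFB, NDUFC, NDUFS and NDUFV (without the NDUFAF assembly factors) for complex I, SDHA to SDHD for complex II, UQCR for complex III, COX4 to COX8 for complex IV and ATP5 for complex V. This gave 89 of the 19137 gene symbols in the count data, with 40 in complex I, 4 in complex II, 9 in complex III, 17 in complex IV and 19 in complex V. Each symbol was represented by the transcript with the highest mean count, which was a choice for the 31 members with several transcripts. Of the 89, the read-through transcripts NDUFC2-KCTD14 and ATP5J2-PTCD1 and the genes ATP5S and ATP5SL, which carry the name but are not counted among the enzyme's structural subunits, are members by symbol. They were left out of the summed levels and densities, which cover 85.

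Electrons enter the chain at complex I (NADH dehydrogenase) and complex II (succinate dehydrogenase), pass through ubiquinone to complex III (the cytochrome bc1 complex) and on through cytochrome c to complex IV (cytochrome c oxidase). Complexes I, III and IV pump protons across the inner mitochondrial membrane, and complex V (ATP synthase) uses the gradient to make ATP. Most subunits are encoded in the nucleus, made on cytosolic ribosomes and imported, and they assemble in fixed proportions with the few that the mitochondrion makes itself.

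MCF10A-ER-Src is an established breast epithelial line that carries a fusion of the Src kinase with the oestrogen receptor's hormone-binding domain. The kinase is switched on by 4-hydroxytamoxifen (1 µM here). Its libraries come from cells at 0 h, cells given tamoxifen for 1, 4 or 24 h and cells given the ethanol vehicle for 1, 4 or 24 h, and the fusion is present in all of them, controls included. EH, EL and ELR are derivatives of BJ, a human skin fibroblast line. The labels do not spell out what each carries, so no step between them can be tied here to a named gene. Ribosome-protected fragments were collected under cycloheximide, which holds elongating ribosomes in place, or harringtonine, which stops ribosomes at start codons, and total RNA depleted of ribosomal RNA was sequenced beside them. Under cycloheximide EH, EL, ELR and each tamoxifen time had 2 libraries. The 0 h cells (replicate 1) and the 3 ethanol times (all replicate 2) had 1 each and were pooled into an uninduced arm of 4, so vehicle and replicate number cannot be told apart there. Every RNA group had 1 library. Under harringtonine the BJ lines had 2 libraries each, and ER-Src had 1 each at 0, 1, 4 and 24 h.

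The deposited values are read counts per transcript. Total counts ranged from 1178012 to 3628073 in the cycloheximide libraries, from 2071883 to 3008760 in RNA and from 129175 to 374359 under harringtonine. The members took 1.35 to 1.83% of all cycloheximide counts in the BJ lines and 2.1 to 2.53% in ER-Src, against 0.557 to 0.771% and 0.877 to 1.03% of RNA. Levels below are normalised read counts (CPM) after trimmed-mean scaling within each assay, means carry an SD, and differences are log2 values with an SE from edgeR's quasi-likelihood test. A gene was called when its p, adjusted by Benjamini-Hochberg over all genes of the fit, was under 0.05. The labels do not tell whether replicates were separate cultures, and BJ replicates differed little beyond counting noise (biological coefficient of variation 1.8%, against 13.9% in ER-Src), so the p-values measure only the spread between these libraries. Summed over 10 markers each, epithelial markers gave 10000 to 20400 CPM in the ER-Src footprints under cycloheximide and 841 to 1300 CPM in the BJ lines, and fibroblast markers gave 59.3 to 134 and 1240 to 30900 CPM. These are bulk samples, in which fewer cells of a type and less RNA per cell cannot be told apart.

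Summed footprint levels ran from complex I down through V, IV and III to II in every cycloheximide library except the second of EL, where complex V (5849 CPM) lay just above complex I (5810 CPM), and each complex stood higher in every ER-Src library than in any BJ library. Complex I summed to 5204 and 5220 CPM in the 2 EH libraries, 5810 and 5868 in EL and 6415 and 6425 in ELR. In uninduced ER-Src the 4 libraries lay between 7190 and 8220 CPM. The BJ lines thus stepped upward from EH to ELR and stayed below ER-Src. Complex IV summed to 2180 and 2231 CPM in EH, 2865 and 2884 in EL, 3052 and 3081 in ELR and 3681 to 4532 in uninduced ER-Src. Complex V summed to 4749 and 4761 CPM in EH, 5840 and 5849 in EL, 5890 and 5956 in ELR and 6933 to 7564 in uninduced ER-Src. Complexes II and III were the exception to the upward order of the BJ lines: complex II peaked in EL (658.9 and 661.4 CPM, against 539.3 and 540.3 in EH and 615.8 and 617 in ELR), and so did complex III (1714 and 1742 CPM in EL, 1674 and 1675 in ELR and 1478 and 1485 in EH). Scaled on plain totals instead, complex V summed to 4412 CPM for EH, 6026 for EL and 5993 for ELR, so that the order of EL and ELR for complex V rests on the scaling.

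**Figure D1:**
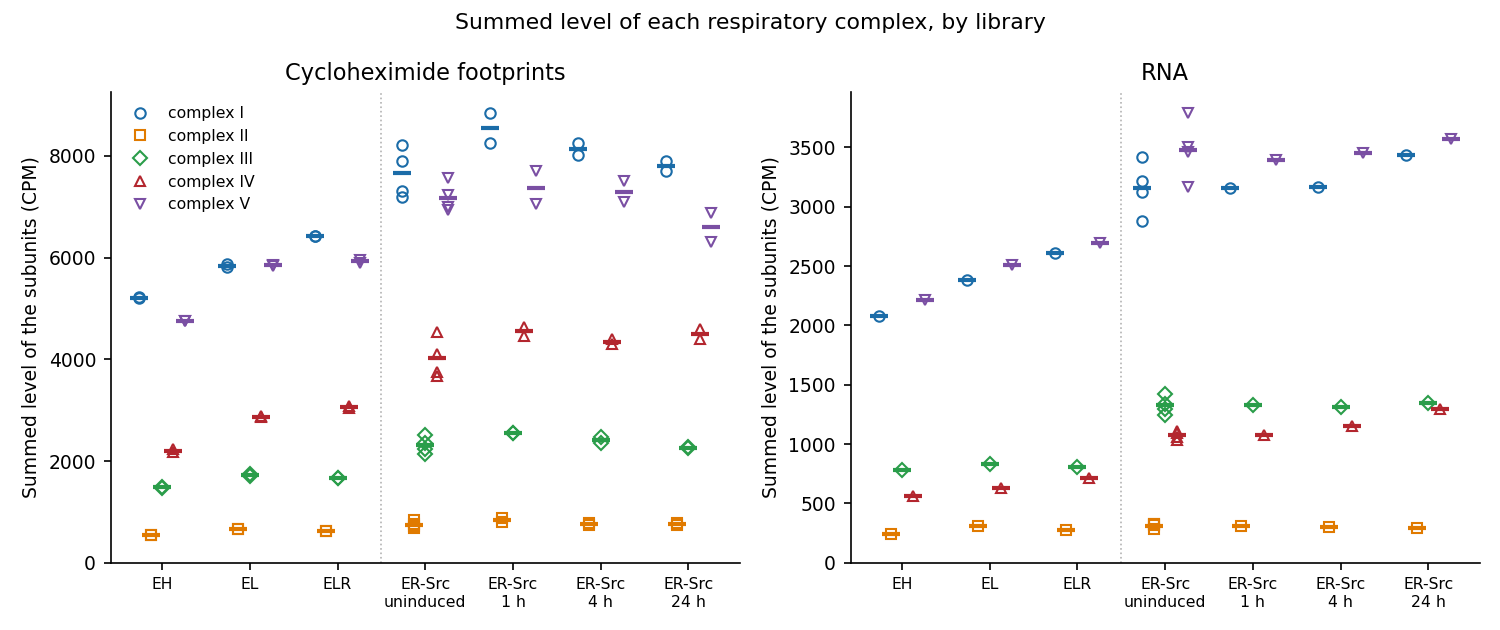
Summed level of the subunits of each complex (CPM, vertical axis) in every cycloheximide footprint library (left) and RNA library (right), by group. Symbols are libraries, horizontal ticks are group means, and the dotted line parts the BJ lines from ER-Src; complex I footprints lie between 5204 and 6425 CPM in the BJ lines and from 7190 CPM upward in ER-Src.

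In RNA the same sums were lower and more alike for complexes I and V. Complex I summed to 2075 CPM for EH, 2383 for EL and 2607 for ELR, with 2878 to 3416 CPM in the 4 uninduced ER-Src libraries, and complex V had 2217, 2506 and 2694 CPM against 3162 to 3789. The place of complex IV differed between the assays: its RNA sum was 564.1, 631.6 and 712.4 CPM in the BJ lines and 1033 to 1111 in uninduced ER-Src, below that of complex III in each (784.4, 830.5 and 803.4, and 1246 to 1422 CPM). In footprints complex IV lay above complex III in every group.

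Taken per kilobase of coding sequence, so that genes of different length can be compared, the footprint density of the median subunit in uninduced ER-Src was highest in complex IV. It was 1210 CPM per kb there (11 subunits), 691 in complex V (15), 609 in complex III (8), 374 in complex I (38) and 329 in complex II (4). The extremes were NDUFA4 at 2110 and NDUFV3 at 55.3 CPM per kb in complex I, SDHC at 466 and SDHA at 46.7 in complex II, UQCRQ at 1580 and UQCRC2 at 214 in complex III, COX6C at 2090 and COX7A2L at 211 in complex IV, and ATP5G3 at 1840 and ATP5D at 475 in complex V. NDUFA4 was named for complex I and was later assigned to cytochrome c oxidase, and COX7A2L is an assembly factor of supercomplexes rather than a core subunit. NDUFV3, SDHA and COX7A2L held the lowest place in EH, EL and ELR as well. In EH the highest densities were those of NDUFA4 (1380), UQCRQ (924), COX7A2 (1420), the epsilon subunit gene ATP5E (1210 CPM per kb) and, in complex II, SDHD (293). RNA densities in uninduced ER-Src had medians of 110, 63.8, 186, 279 and 315 CPM per kb for complexes I to V, so complex V led in RNA and complex IV in footprints. The sources used here do not give the region that was counted, and RNA counts that took in untranslated regions would raise the RNA density of short genes.

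Several subunits have isoform genes used in muscle, testis or lung, and these were near silent. COX4I2, COX6A2 and COX6B2, which encode the lung, heart and testis forms, and the testis form COX8C had no count in any of the 36 libraries. With 0 counts in 23996656 ER-Src cycloheximide counts, the limit that a count of 0 allows (3 counts) is 0.125 CPM, and in the BJ lines it is 0.256 CPM. Their common partners were abundant: COX4I1 had 337 to 565 CPM in the BJ lines and 582 to 751 in ER-Src, COX6A1 253 to 313 and 343 to 573, COX6B1 150 to 198 and 224 to 335, and COX8A 230 to 333 and 169 to 313 CPM. COX7B, a small subunit, had 125 to 241 CPM in the BJ lines and 256 to 406 in ER-Src, while its testis form COX7B2 had 2 counts in all, both in ER-Src. NDUFA4L2, a hypoxia-linked relative of NDUFA4, had 6 footprint counts in the BJ lines and 2 in ER-Src, where NDUFA4 itself had 3361 and 12876. ATP5L2, a near copy of the g subunit gene ATP5L, had 1 footprint count, in ER-Src, where ATP5L had 8553. Such intervals and limits reflect counting error alone, because without molecular identifiers several reads may come from 1 molecule.

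The hinge protein gene UQCRH and its near copy UQCRHL show how far such counts can be assigned. The coding sequences are given because they are nearly the same; capitals mark the bases at which they differ (GRCh37, coding strand, 276 bases each; UQCRH on chromosome 1 from 46769370 to 46782448, plus strand, and UQCRHL on chromosome 1 from 16133664 to 16135843, minus strand).
UQCRH: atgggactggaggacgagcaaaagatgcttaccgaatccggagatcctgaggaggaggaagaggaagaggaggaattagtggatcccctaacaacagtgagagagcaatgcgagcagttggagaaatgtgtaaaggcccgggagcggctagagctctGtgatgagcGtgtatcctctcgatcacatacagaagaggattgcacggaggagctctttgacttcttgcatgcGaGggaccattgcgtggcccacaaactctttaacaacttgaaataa
UQCRHL: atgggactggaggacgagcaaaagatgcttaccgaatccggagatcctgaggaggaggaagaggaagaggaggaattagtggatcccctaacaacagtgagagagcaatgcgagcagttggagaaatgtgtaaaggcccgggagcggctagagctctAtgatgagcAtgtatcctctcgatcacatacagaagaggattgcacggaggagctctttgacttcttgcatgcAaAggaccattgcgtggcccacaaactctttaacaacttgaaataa
They differ at 4 positions (98.6% identity) and 89 of the 92 codons, the stop included, give the same amino acid. UQCRHL had 1 footprint count and 1 RNA count, both in ER-Src. UQCRH had 1287 cycloheximide counts in the BJ lines and 3546 in ER-Src. Of the 28-base stretches of the UQCRH coding sequence, 73.1% also occur in an annotated transcript of another gene, coding or not. Its level thus depends on how the authors' alignment placed reads that fit both.

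COX7A1, the muscle form of a complex IV subunit (NM_001864, GRCh37 chromosome 19, 36641824 to 36643351), was the member that set the fibroblast lines apart. Its counts under cycloheximide were 22 and 11 in EH, 3 and 6 in EL, 2 and 0 in ELR and 0 in all 10 ER-Src libraries. The 2 EH libraries (16.6 and 10.1 CPM) lay above every other library. From EH to EL, COX7A1 fell by 2.8 ± 0.52 (adjusted p = 7.68e-06, edgeR), and EH exceeded EL 7.3-fold (95% counting interval 3.42 to 17.3). Against ELR the ratio was 30.7 (7.86 to 264), and against uninduced ER-Src EH was at least 49.7-fold higher, taking a floor of 3 counts over the group. The ubiquitous form COX7A2 had 356 and 358 CPM in EH, 476 and 484 in EL and 447 and 449 in ELR, so COX7A1 was a small addition to it. Muscle markers (6 genes) summed to 4.58 to 16.9 CPM in the BJ lines, and all 10 fibroblast markers fell at both steps from EH to ELR (medians −1.87 and −4.49). Their part in the fall of COX7A1 was not tested.

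At the first step, EL against EH, most respiratory subunits were higher in EL by small amounts, and how many were called depended on the spread used. Of the 81 members tested, 54 rose and 4 fell, where 19.1% of all 9996 genes rose and 41.5% were called in either direction. The median was 0.29 against −0.01 over all genes. DESeq2 called 34 members, and its share over all genes is not given here. With the spread shared by all 16 cycloheximide libraries 26 (32.1%) were called, where 23.8% of genes were. By complex, 24 of 39 rose in complex I (median 0.26), 2 of 4 in complex II (0.30), 6 of 8 in complex III (0.35), 9 of 12 in complex IV (0.40) and 13 of 18 in complex V (0.29).

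The largest rises were spread over complexes I, III, IV and V. ATP5J, coupling factor 6 of ATP synthase (NM_001003701, GRCh37 chromosome 21, 27088815 to 27107984), had 149 and 125 CPM in EH and 256 and 240 CPM in EL, a rise of 0.87 ± 0.09 (adjusted p = 5.19e-13, edgeR). UQCRH had 65.6 and 55.9 CPM in EH and 108 and 107 CPM in EL, a rise of 0.83 ± 0.13 (adjusted p = 1.49e-07, edgeR). For both genes the 2 lines did not overlap, and the gap between lines was several times the gap between replicates. COX7B rose by 0.84 ± 0.09, and COX5B, a zinc-binding subunit of the same complex, by 0.63 ± 0.1. Among accessory subunits of complex I, NDUFA12 rose by 0.73 ± 0.11 (110 and 96.2 CPM in EH, 181 and 157 in EL) and NDUFA8 by 0.73 ± 0.13 (68.6 and 65.9, then 109 and 112 CPM). ATP5G1 and ATP5G2, which encode the c subunit of the ATP synthase ring, rose by 0.75 ± 0.11 and 0.59 ± 0.07, and UQCR10, a small subunit of complex III, by 0.61 ± 0.11. ATP5S rose by 0.85 ± 0.31, a call that was lost without the second EH library (0.66) or the second EL library (0.74). In complex II the catalytic pair rose, SDHA (flavoprotein) by 0.47 ± 0.1 and SDHB (iron-sulphur protein) by 0.50 ± 0.09, while the membrane anchors SDHC (0.09 ± 0.1) and SDHD (0.14 ± 0.1) were not called.

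Beside COX7A1, 3 subunits fell in EL. NDUFA4 had 339 and 340 CPM in EH and 238 and 230 CPM in EL, a fall of 0.52 ± 0.07 (adjusted p = 3.58e-09, edgeR). NDUFA13, an accessory subunit also known as GRIM-19, fell by 0.30 ± 0.08 and UQCRC1, a core protein of complex III, by 0.24 ± 0.07. Without the second EH library neither was called (−0.21 for both), and without the first EL library UQCRC1 was not (−0.13). Its core partner UQCRC2 rose by 0.40 ± 0.08, and the Rieske iron-sulphur protein UQCRFS1 rose by 0.31 ± 0.08, so the 3 large subunits of complex III did not move together. In the catalytic core of complex I, NDUFS3 (0.31 ± 0.11), NDUFS7 (0.32 ± 0.12) and NDUFV2 (0.36 ± 0.1) rose. NDUFS1 (0.16 ± 0.09), NDUFS8 (0.15 ± 0.09) and NDUFV1 (−0.05 ± 0.1) were not called. In the catalytic head of ATP synthase both ATP5A1 (alpha, 0.41 ± 0.04) and ATP5B (beta, 0.14 ± 0.04) rose.

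The second step, ELR against EL, split the subunits. Of 81 tested, 23 rose and 9 fell, against 36.1% of all genes called (17.4% higher, 18.7% lower), with a median of 0.07. Complex V had 6 members that rose and 5 that fell of 18, complex I had 10 and 1 of 39, complex IV 5 and 0 of 12, complex III 2 and 2 of 8 and complex II 0 and 1 of 4. The members' share of calls in either direction was near that of all genes at this step. More of the called members rose than fell, which was not so over all genes.

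**Figure D2:**
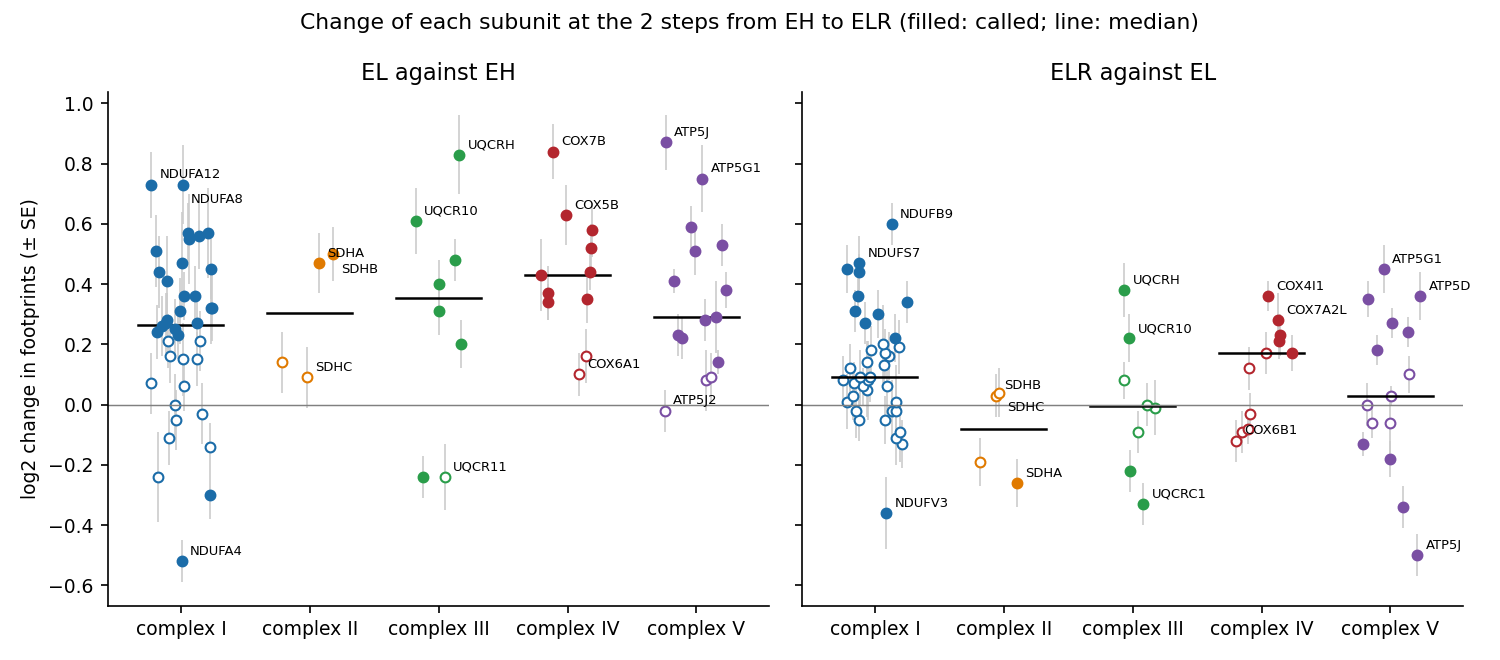
Log2 change in cycloheximide footprints of each tested subunit (points, ± SE) at the steps EL against EH (left) and ELR against EL (right), by complex. Filled points were called, lines are medians, and COX7A1 (−2.8 and −1.91) and the 4 symbols outside the structural subunits are not drawn; most points lie above 0 on the left, while on the right those of complex V lie on both sides.

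NDUFA4 and ATP5J went back at the second step. NDUFA4 had 312 and 316 CPM in ELR, a rise of 0.44 ± 0.06 over EL that left it at −0.08 ± 0.07 against EH. ATP5J had 179 and 165 CPM in ELR, a fall of 0.50 ± 0.07 that left it 0.36 ± 0.10 above EH. UQCRC1 fell at both steps: its libraries had 323 and 332 CPM in EH, 259 and 292 in EL and 214 and 217 in ELR, and the second fall was 0.33 ± 0.07. UQCRH and ATP5G1 rose at both. UQCRH reached 139 and 136 CPM in ELR (0.38 ± 0.09 over EL), and ATP5G1 went from 86 and 102 CPM through 150 and 161 to 204 and 214 CPM (0.45 ± 0.08 over EL), with no overlap between any of the 3 lines. NDUFB9, a membrane-arm subunit of complex I, rose most at this step, from 180 and 191 to 287 and 262 CPM (0.60 ± 0.07, adjusted p = 1.81e-11, edgeR). With the spread shared by all cycloheximide libraries, 8 of 81 members were called at this step. Not every rise or fall named here and in the next paragraph thus kept its call. DESeq2 also called fewer members at this step than edgeR.

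Other subunits that rose from EL to ELR were NDUFS7 (0.47 ± 0.09), which carries the last iron-sulphur cluster before ubiquinone, the acyl carrier NDUFAB1 (0.45 ± 0.08), NDUFB4 (0.36 ± 0.07), the delta and epsilon subunits ATP5D (0.36 ± 0.08) and ATP5E (0.35 ± 0.06), and COX4I1 (0.36 ± 0.05), with 453 and 430 CPM in EL and 565 and 550 in ELR. Those that fell were the alpha subunit ATP5A1 (−0.13 ± 0.04), the stalk protein ATP5O (−0.18 ± 0.06), ATP5J2, the f subunit (−0.34 ± 0.07), with the read-through ATP5J2-PTCD1 that shares its exons (−0.45 ± 0.1), UQCRFS1 (−0.22 ± 0.07), NDUFV3 (−0.36 ± 0.12) and SDHA (−0.26 ± 0.08). The calls of 5 of these falls were lost without single libraries: SDHA without the first EL (−0.23), first ELR (−0.29) or second ELR library (−0.24), UQCRFS1 without the first EL or first ELR (−0.21 each), ATP5A1 without the same (−0.11 each), ATP5O without the first ELR (−0.15) or second EL (−0.17) and NDUFV3 without the second EL (−0.32) or second ELR (−0.29). SDHA thus rose at the first step and was lower again at the second, with 106 and 117 CPM in EH, 156 and 148 in EL and 126 and 123 in ELR. Of its 28-base stretches 93% also occur in other annotated genes, so its level is uncertain in the same way as that of UQCRH.

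Across both steps together, ELR against EH, 55 of 81 members rose and 5 fell, with a median of 0.33, where 25.5% of all genes rose and 53.4% were called. The comparison shares its EH and ELR libraries with the steps above and adds no independent evidence to them. UQCRH rose by 1.21 ± 0.12, ATP5G1 by 1.2 ± 0.10, NDUFA12 by 0.91, ATP5G2 by 0.87 ± 0.07, ATP5E by 0.86 ± 0.08, NDUFB9 by 0.84 ± 0.09, UQCR10 by 0.83 ± 0.11, NDUFA8 by 0.81 ± 0.13 and COX5B and COX7B by 0.80 each. COX7A1, UQCRC1 (−0.57 ± 0.08), ATP5J2 (−0.36 ± 0.08), ATP5J2-PTCD1 (−0.39 ± 0.12) and UQCR11, a small complex III subunit (−0.25 ± 0.11), fell. UQCR11 was not called without the first ELR (−0.23), second ELR (−0.24) or second EH library (−0.13), nor ATP5J2-PTCD1 without the first EH library (−0.32). In complex IV 11 of 12 rose and the remaining one, COX7A1, fell.

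These counts rest on the close spacing of the BJ replicates. With the spread shared by all 16 cycloheximide libraries, 8 of 81 members (9.88%, genes 16.3%) were called from EL to ELR and 35 (43.2%, genes 38.4%) from EH to ELR. Each of those calls, and of the 26 from EH to EL, had the same sign as above. DESeq2 called 17 and 44 members. The share of all genes that DESeq2 called is not given here, so its counts have no background beside them.

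Between the single RNA libraries of the BJ lines, compared here without a test, the ratio EL over EH had a median log2 of 0.16 over 75 members (−0.04 over all genes) and lay above 0 for 57. ELR over EL had 0.10 over 74 members (−0.01 over all genes), with 45 above 0. ELR over EH had 0.22 over 76 members (−0.02 over all genes), with 60 above 0. The RNA of NDUFA4 was 19.3, 13.1 and 21.2 CPM in EH, EL and ELR, that of ATP5J 58, 71.1 and 48.6 CPM and that of UQCRC1 162, 141 and 109 CPM, each in the direction of its footprints at both steps. COX5B and UQCRH, whose footprints rose at the first step, had nearly level RNA there, with 41.4, 41.2 and 46.1 CPM and 24.7, 25.8 and 28.5 CPM.

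The promoters of 4 of the subunits that rose from EH to EL are given because binding sites of the nuclear respiratory factors, which are known regulators of these genes, have simple letters that can be searched. They were chosen because they hold a match: of the 9 structural subunits with the largest rises from EH to EL, these 4 do, and ATP5G1, ATP5G2, NDUFA8, COX7B and UQCR10 do not. Each stretch is the 150 bases before the RefSeq transcript start (GRCh38.p14, coding strand), and capitals mark the matches to CCGGAAG (the core bound by ETS factors, among them GABP, also called NRF-2) or to the NRF-1 site (GCGCA and GCGC parted by any 1 base), on either strand. They are ATP5J (chr21:25735055-25735204, minus strand), UQCRH (chr1:46303548-46303697, plus strand), NDUFA12 (chr12:95003698-95003847, minus strand) and COX5B (chr2:97645912-97646061, plus strand).
ATP5J: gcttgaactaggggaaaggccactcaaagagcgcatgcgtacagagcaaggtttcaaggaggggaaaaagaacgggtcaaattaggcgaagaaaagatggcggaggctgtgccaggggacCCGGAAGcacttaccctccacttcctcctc
UQCRH: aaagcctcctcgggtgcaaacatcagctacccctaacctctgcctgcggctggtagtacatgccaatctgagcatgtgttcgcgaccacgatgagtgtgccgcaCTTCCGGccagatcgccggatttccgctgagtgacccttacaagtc
NDUFA12: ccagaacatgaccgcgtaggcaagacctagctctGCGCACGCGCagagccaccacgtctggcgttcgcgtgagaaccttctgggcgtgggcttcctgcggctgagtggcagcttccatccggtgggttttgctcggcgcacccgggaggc
COX5B: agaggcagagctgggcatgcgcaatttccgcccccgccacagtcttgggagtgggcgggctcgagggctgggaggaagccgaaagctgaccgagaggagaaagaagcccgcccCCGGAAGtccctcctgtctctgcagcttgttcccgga
Of the 85 structural members 67 matched an entry of the RefSeq promoter table by symbol. In the 250 bases before the start, 14 of these (20.9%) held the NRF-1 letters and 16 (23.9%) held CCGGAAG, 28 held either and 2 both, SDHD and UQCR11. Over all 27305 promoters of the table the shares were 5.53% and 8.82%, and over the 13994 whose symbol the count files list they were 7.7% and 11.9%. Complex I and complex IV held NRF-1 letters in 5 of 32 and 1 of 14 promoters, complex III in 3 of 7. Of the 9 largest risers, 4 held either motif, beside 28 of the 67 members. In footprints the GABP genes GABPA and GABPB1 fell from EH to EL (−0.61 ± 0.18 and −0.70 ± 0.17), while the regulators TFAM and YY1 rose. A match describes the letters in this window and is not evidence of binding, and a link between matches and rises was not tested.

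Few subunits were called after induction of Src. Counts at an unadjusted p under 0.05, here and below, have no share of all genes at that threshold beside them. The gene shares given are for adjusted p. At 1 h of tamoxifen none of 80 tested members was called in footprints by edgeR or DESeq2 (13 had an unadjusted p under 0.05), where 0.0196% of all genes were called. At 4 h none was called by either tool (4 with an unadjusted p under 0.05), beside 0.854% of genes. At 24 h 1 of 80 was called, against 14.6% of genes (8.8% higher, 5.84% lower), and 15 had an unadjusted p under 0.05. The member called was ATP5D, the delta subunit of ATP synthase (NM_001001975, GRCh37 chromosome 19, 1241745 to 1244824), with 283, 238, 218 and 225 CPM in the uninduced libraries and 174 and 163 CPM at 24 h. The 24 h libraries lay below all 4 uninduced ones and below the 1 and 4 h libraries (257 to 272 CPM), and the fall was 0.53 ± 0.13 (adjusted p = 0.0126, edgeR). Without the first or the second 24 h library it was −0.56 (adjusted p = 0.0789) and −0.47 (adjusted p = 0.16), which ended the call. In RNA at 4 and 24 h together none of 80 members was called by edgeR or DESeq2 (2 with an unadjusted p under 0.05), beside 0.424% of genes, and ATP5D had 0.00 ± 0.29.

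The 24 h comparison depended on the ethanol library of that time. It was the highest of the 4 uninduced libraries in 43 of 80 members (53.8%), against 27.8% of all genes. Without it 10 members were called at 24 h: NDUFC1 (0.78), NDUFA7 (0.76), COX5B (0.52), COX7A2 (0.51), NDUFV3 (0.50), COX6A1 (0.48), COX7B (0.47), UQCRQ (0.40) and NDUFB4 (0.34) rose, and ATP5D fell (−0.55). The share of all genes called in that fit is not given here. It holds no vehicle library of 24 h, so tamoxifen and time in culture cannot be told apart there. Tamoxifen against ethanol at the same time, with a single ethanol library and no test, gave a median of 0.20 at 1 h, 0.19 at 4 h and −0.07 at 24 h over the members, with 59, 73 and 23 of 80 above 0. Over all genes the footprint medians were 0.01, 0.0 and 0.0. In RNA the members' medians were 0.01, −0.01 and 0.01, against −0.01, 0.01 and 0.0 over all genes. COX5B shows the pattern: it had 281, 296 and 283 CPM at 0 h and after 1 and 4 h of ethanol, 397 CPM after 24 h of ethanol, and 429 and 397 CPM after 24 h of tamoxifen.

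Most subunits were higher in ER-Src cells than in the fibroblast line EH. In footprints 58 of 81 members were higher in uninduced ER-Src than in EH and 3 were lower, where 29.4% of all genes were higher, 29.7% lower and 59.1% called in either direction, and the median was 0.61. In RNA 37 of 80 were higher and 1 lower (18.7% of genes higher, 20.4% lower, 39% called), with a median of 0.70. The RNA fit assumes that the single EH library varies like the replicated arms. By complex the footprint medians were 0.57, 0.49, 0.69, 0.81 and 0.56 and the RNA medians 0.67, 0.32, 0.71, 1.02 and 0.77 for I to V, with complex IV highest in both. The epithelial and fibroblast markers given above separate the same libraries, and their part in these differences was not tested.

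NDUFB9 led in footprints, with 155 and 163 CPM in EH and 426 to 483 CPM in uninduced ER-Src (1.52 ± 0.12, adjusted p = 2.14e-09, edgeR), and its RNA was 39.6 CPM in EH and 113 to 127 CPM in uninduced ER-Src (1.62 ± 0.21, adjusted p = 0.000134, edgeR). COX5A (1.49 ± 0.12), COX6C (1.44 ± 0.11) and COX5B (1.33 ± 0.15) of complex IV, ATP5G3 (1.33 ± 0.12), NDUFAB1 (1.28 ± 0.13), NDUFA5 (1.24 ± 0.2), COX7B (1.23 ± 0.15), ATP5G1 (1.16 ± 0.17) and UQCRH (1.14 ± 0.19) followed in footprints. In RNA the largest were NDUFC1 (1.66 ± 0.38), NDUFB9, ATP5G3 (1.52 ± 0.29), UQCRH (1.43 ± 0.3), COX7C (1.33 ± 0.3), COX5A (1.31 ± 0.36), NDUFAB1 (1.30 ± 0.23), NDUFA1 (1.29 ± 0.26), ATP5G1 (1.28 ± 0.41) and COX7B (1.24 ± 0.25). Across the 80 members measured in both, the footprint and RNA differences had a Pearson correlation of 0.68 (Spearman 0.62); the points share their 2 cell models, and no p is given. Lower in ER-Src were COX7A1, NDUFA11 (−0.36 ± 0.15) and SDHA (−0.28 ± 0.11) in footprints and ATP5E in RNA (−0.67 ± 0.21, adjusted p = 0.0261, edgeR), with 122 CPM in EH and 70 to 84.6 CPM in uninduced ER-Src. Without either EH library NDUFA11 (−0.46 and −0.22) and SDHA (−0.34 and −0.19) were not called, nor were they without the ethanol library of 1 h (−0.34 and −0.27) or 4 h (−0.28 and −0.24), nor SDHA without that of 24 h (−0.27). The ATP5E call was lost with DESeq2 (−0.68, adjusted p = 0.0684) and, in edgeR, without the ethanol RNA library of 1 h (−0.63, adjusted p = 0.0626) or of 4 h (−0.62, adjusted p = 0.0645). ATP5G1 was not called in RNA without the same libraries (1.13 and 1.2). SDHB (0.67 ± 0.11), SDHC (0.77 ± 0.14) and SDHD (0.32 ± 0.13) were higher in ER-Src footprints, and SDHA was not. Whether SDHA was truly lower is not settled, since that call hung on single libraries and its RNA was not called (−0.08 ± 0.21).

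Most respiratory subunits had more footprints for their RNA than the average gene, in both models. In uninduced ER-Src 77 of 80 members were called higher in footprints than in RNA and 1 was called lower, where 37.0% of all genes were higher and 72.2% were called. The median was 1.74, against 0.04 over all genes. In the BJ lines 80 of 81 were higher and 1 lower (39.6% of genes higher, 79.6% called), with a median of 1.92 against −0.01. By complex the ER-Src medians were 1.84, 1.47, 1.35, 2.02 and 1.69 and the BJ medians 1.92, 1.61, 1.58, 2.30 and 1.76 for I to V. Each assay was scaled on its own total, so these are relative values, and an RNA arm of 1 library took its spread from the replicated arms. In the BJ lines these are footprint arms only, with a biological coefficient of variation of 1.79%, where the ER-Src RNA libraries had 19.2%, so the BJ p-values hold no spread between RNA libraries.

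COX8A, a small membrane subunit of complex IV (NM_004074, GRCh37 chromosome 11, 63742092 to 63744015), and NDUFA11, a membrane-arm subunit of complex I (NM_175614, chromosome 19, 5891287 to 5904017), led in both models. COX8A had 237, 197, 169 and 262 CPM in the footprints of uninduced ER-Src and 4.42 to 10.1 CPM in its RNA, a difference of 4.92 ± 0.20 (adjusted p = 5.07e-14, edgeR), and in the BJ lines 230 to 333 CPM and 3.66 to 6.29 CPM (5.93 ± 0.12). NDUFA11 had 185, 156, 136 and 172 CPM in those footprints and 4.81 to 6.45 CPM in RNA (4.93 ± 0.17), and 5.20 ± 0.12 in the BJ lines. The RNA of both genes was scarce in every library, with 80 counts of COX8A and 59 of NDUFA11 over the 4 uninduced RNA libraries. COX5A (4.22 and 4.19), NDUFS7 (3.84 and 4.22), NDUFA4 (3.63 and 4.16), ATP5G3 (3.49 and 3.66), NDUFB6 (3.36 and 3.63) and ATP5D (3.35 and 3.61) came next in both models, ER-Src first. SDHC (3.68) and NDUFB4 (3.24) were among the first 10 in ER-Src, and NDUFA3 (3.70) and UQCR11 (3.52) in the BJ lines, leaving aside COX7A1 (4.04 ± 1.18), which rests on the few counts given above.

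NDUFS1, the largest subunit of complex I (NM_001199984, GRCh37 chromosome 2, 206979541 to 207024233), stood alone at the other end. It carries several of the iron-sulphur clusters of the NADH-oxidising arm. Its footprints were 158, 151, 170 and 174 CPM in uninduced ER-Src and its RNA 428, 447, 446 and 524 CPM, the reverse order of COX8A. The difference was −1.37 ± 0.10 (adjusted p = 2.55e-10, edgeR) in ER-Src and −1.13 ± 0.05 in the BJ lines, where footprints were 148 to 202 CPM and RNA 384, 406 and 463 CPM. Near 0 in ER-Src were SDHA (0.22 ± 0.11) and UQCRB (0.11 ± 0.1), neither of them called, and UQCRC2 (0.26 ± 0.1). Other core subunits lay in between, with NDUFV2 at 0.64, NDUFV1 at 1.16, NDUFS3 at 1.80, NDUFS8 at 2.23, UQCRC1 at 1.01, UQCRFS1 at 1.54, ATP5A1 at 0.41 and ATP5B at 0.60. In complex II SDHB had 0.68 and SDHD 2.26.

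**Figure D3:**
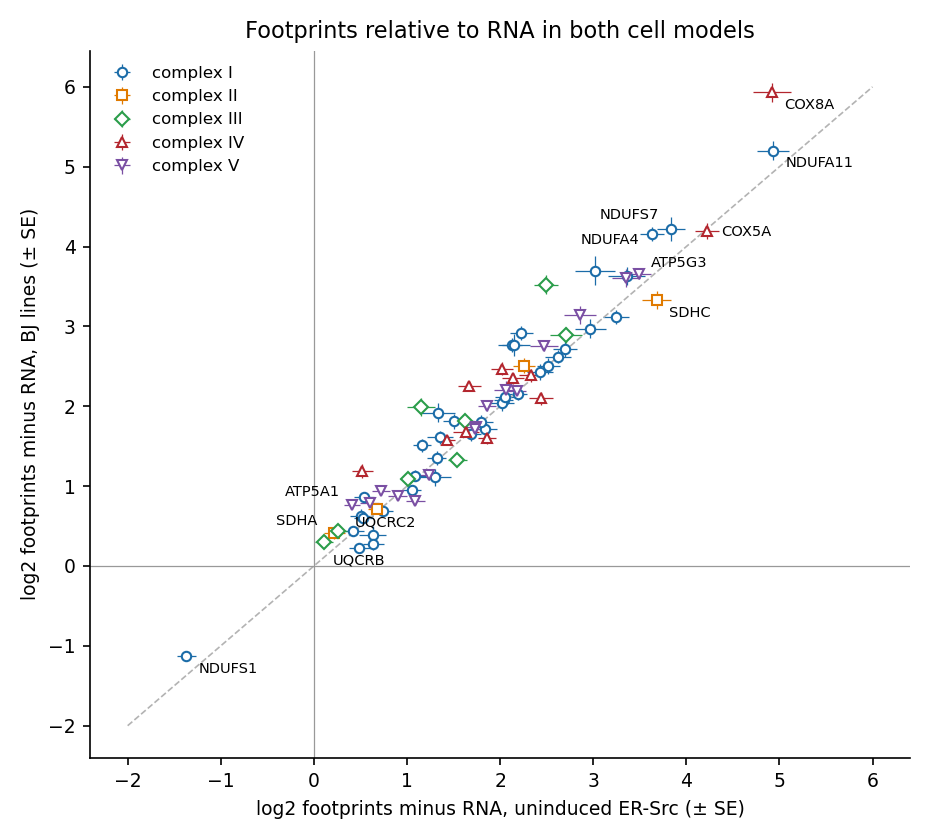
Log2 footprints minus RNA of each subunit in uninduced ER-Src (horizontal) and in the BJ lines (vertical), both relative to the average gene, ± SE, with the line of equality dashed. Symbols mark the complexes; COX8A and NDUFA11 lie at the upper right, above 4.9 on both axes, and NDUFS1 alone lies below 0 on both.

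The order of the members was nearly the same in both models (Pearson 0.97, Spearman 0.96 over 80 members), and so was that of all genes (0.93 and 0.94 over 10134). The models share the annotation, the coding lengths and the library methods, so this is a description. The value fell with coding length, with a correlation of −0.44 in ER-Src and −0.47 in the BJ lines over the members and −0.53 in each over all genes, and rose with the GC content of the coding sequence (0.47 and 0.52 over the members, 0.43 and 0.49 over all genes). Within classes of coding length the members still lay mostly above the median of all genes: in ER-Src 13 of 19 under 300 bases (member median 2.06, all genes 1.85), 28 of 38 from 300 to 600 (2.09 and 1.34), 12 of 13 from 600 to 1200 (1.32 and 0.58) and 9 of 10 from 1200 to 2400 (0.57 and −0.19). The gap was thus small for the shortest genes, where 87.7% of all genes were themselves called higher. By GC content 13 of 13 members above 60% lay over the median of their class (2.49 against 0.96), as did 13 of 13 under 45% (1.09 against −0.72). Of the leading genes, NDUFS7, COX8A, ATP5D and NDUFA11 had a coding GC of 66, 65.2, 68 and 61.7%, while NDUFA4 and ATP5G3 had 46.3 and 48.7% and NDUFS1 had 45.1%. The share of a member's 28-base stretches found in other genes did not go with the value (0.08 and 0.04).

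**Figure D4:**
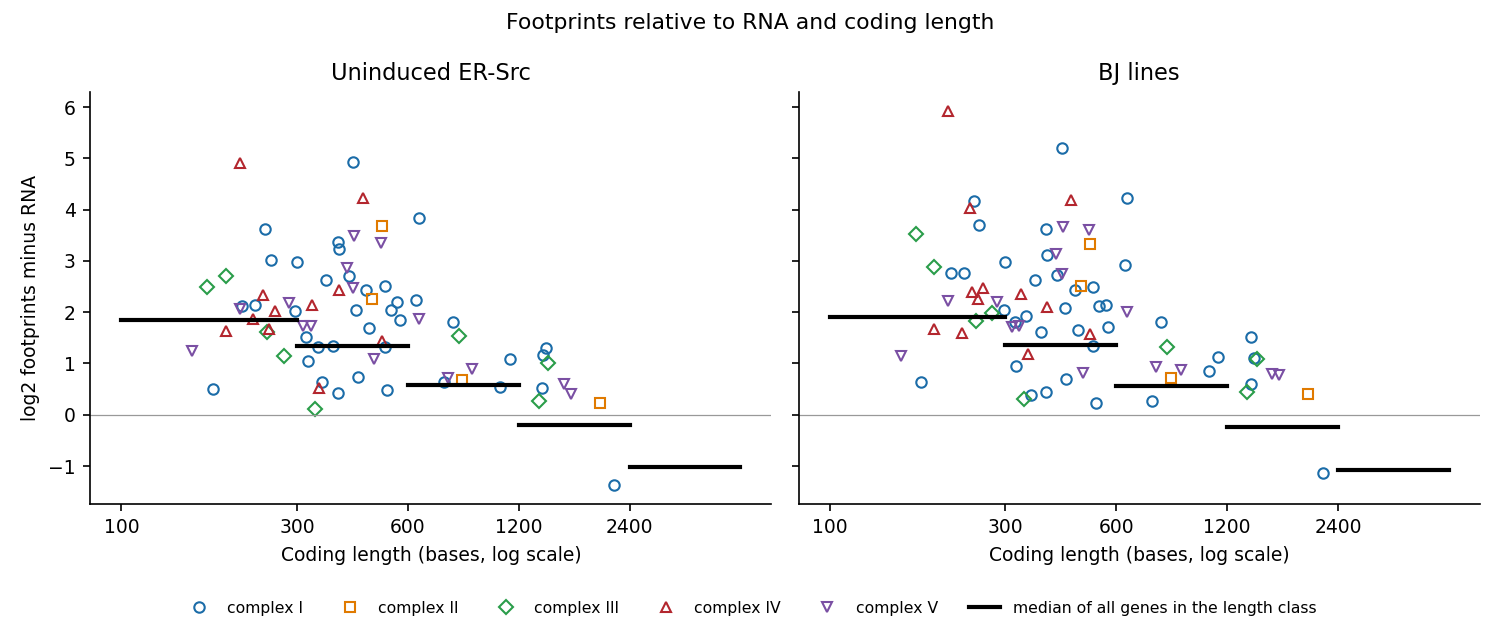
Log2 footprints minus RNA of each subunit against its coding length (bases, log axis) in uninduced ER-Src (left) and the BJ lines (right). Black bars are the medians of all tested genes in each length class, which fall from 1.85 to −1.02 in ER-Src; most subunits lie above the bar of their class, and NDUFS1 lies below it.

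In complexes I, IV and V the subunits were closer to one another in footprints than in RNA, and in complexes II and III they were not. Over the 15 subunits of complex V the SD of log2 density within a library was 0.57 to 0.69 in the ER-Src footprints (10 libraries) and 0.94 to 1.18 in its RNA (7 libraries), and 0.65 to 0.69 against 1.31 to 1.34 in the BJ lines (6 and 3 libraries). For the 11 of complex IV it was 0.84 to 0.97 against 1.18 to 1.58 and 0.69 to 0.79 against 1.21 to 1.48, and for the 38 of complex I 1.06 to 1.17 against 1.24 to 1.43 and 0.94 to 1.04 against 1.22 to 1.26. In these complexes the ranges of footprint and RNA libraries did not overlap in either model. In complex III they overlapped (0.92 to 1.2 and 1.1 to 1.4 in ER-Src), and in complex II of ER-Src the order was reversed (1.45 to 1.65 in footprints, 0.98 to 1.21 in RNA). The members also took a smaller share of the RNA counts, as given above, and the part of counting noise in the RNA values was not tested.

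ATP synthase is given gene by gene. The assembled enzyme holds several copies of the alpha, beta and c subunits, while gamma and delta are not repeated. With the gamma subunit ATP5C1 as 1, the density of beta (ATP5B) was 1.62 to 2.0 in ER-Src footprints and 1.76 to 2.04 in those of the BJ lines, close to its RNA (2.07 to 2.4 and 1.93 to 2.16). The c subunit did not follow its RNA: the summed density of ATP5G1, ATP5G2 and ATP5G3 was 4.49 to 6.55 in ER-Src footprints and 4.14 to 6.91 in BJ ones, but 0.858 to 1.3 and 0.955 to 1.25 in RNA. The delta subunit ATP5D was 0.552 to 1.0 and 0.607 to 0.878 in footprints and 0.0875 to 0.201 and 0.103 to 0.112 in RNA. Alpha (ATP5A1) was 0.733 to 0.954 in ER-Src footprints and 1.19 to 1.41 in the BJ lines, without overlap. In RNA it was 1.11 to 1.29 and 1.18 to 1.58. The epsilon subunit ATP5E stood above gamma in both assays. Its footprint density was 1060 CPM per kb in uninduced ER-Src, 1210 in EH, 1710 in EL and 2140 in ELR. Gamma had 587, 364, 418 and 395 there. In RNA epsilon had 492, 781, 706 and 952 CPM per kb and gamma 344, 224, 225 and 239.

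**Figure D5:**
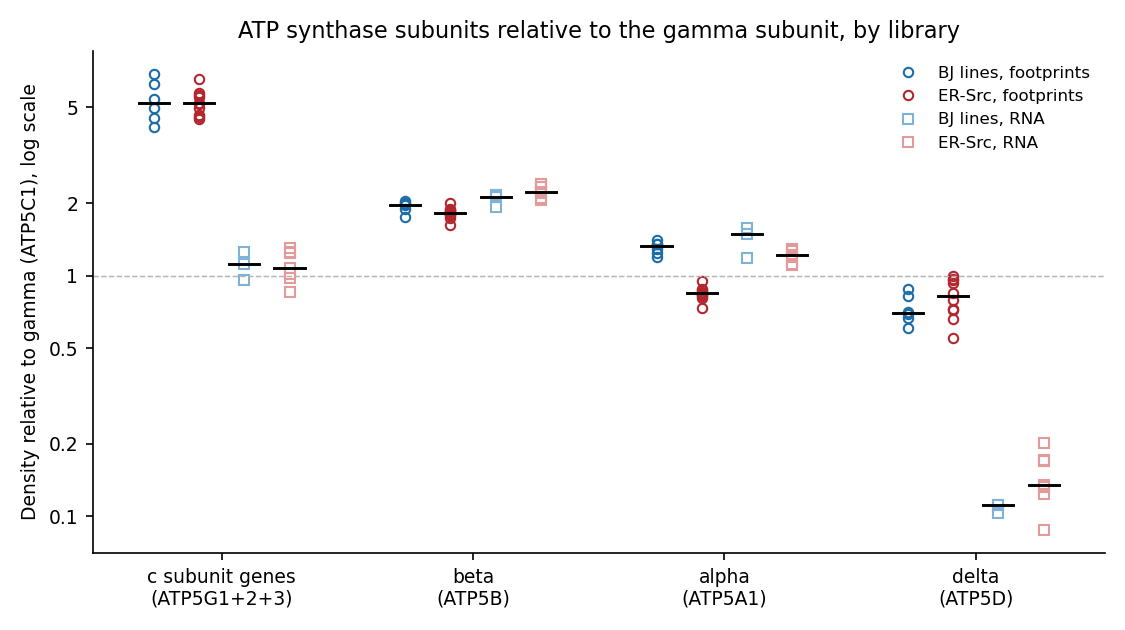
Density (CPM per kb of coding sequence) of ATP synthase subunits relative to gamma (ATP5C1) on a log axis, 1 symbol per library, with medians as black ticks. Circles are footprints and squares RNA, of the BJ lines (blue) and ER-Src (red); the c subunit genes and delta lie higher in every footprint library than in any RNA library, while beta lies near 2 in both assays.

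Ratios within complexes II and III were taken in the same way. SDHC relative to SDHB, which are present in equal number in complex II, was 1.39 to 2.2 in ER-Src footprints and 1.03 to 1.52 in BJ ones, against 0.136 to 0.259 and 0.161 to 0.296 in RNA. The footprint ratio was thus nearer to equal than the RNA ratio. UQCRC1 relative to UQCRC2 was 1.29 to 1.84 and 0.954 to 1.88 in footprints and 0.813 to 1.12 and 0.641 to 0.996 in RNA.

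The c subunit is made from 3 genes that encode the same mature protein behind different import signals, and the models drew on them differently. The ends of their coding sequences are given because they show this: all 76 codons, stop included, give the same amino acid in the 3 genes, while 53 base positions differ among them (capitals). ATP5G1 lies on GRCh37 chromosome 17 (46970127 to 46973233, plus strand), ATP5G2 on chromosome 12 (54026510 to 54071192, minus strand) and ATP5G3 on chromosome 2 (176040986 to 176046438, minus strand), and the stretches start at coding bases 184, 199 and 202.
ATP5G1: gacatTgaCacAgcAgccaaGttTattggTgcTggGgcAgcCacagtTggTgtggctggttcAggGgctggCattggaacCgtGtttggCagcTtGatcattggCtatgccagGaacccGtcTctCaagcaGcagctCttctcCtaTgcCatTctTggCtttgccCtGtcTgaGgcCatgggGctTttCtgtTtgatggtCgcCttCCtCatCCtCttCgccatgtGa
ATP5G2: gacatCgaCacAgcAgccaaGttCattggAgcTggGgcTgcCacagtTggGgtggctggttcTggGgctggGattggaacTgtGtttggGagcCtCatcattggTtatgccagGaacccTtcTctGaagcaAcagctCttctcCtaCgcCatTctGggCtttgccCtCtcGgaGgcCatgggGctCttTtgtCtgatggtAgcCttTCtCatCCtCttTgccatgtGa
ATP5G3: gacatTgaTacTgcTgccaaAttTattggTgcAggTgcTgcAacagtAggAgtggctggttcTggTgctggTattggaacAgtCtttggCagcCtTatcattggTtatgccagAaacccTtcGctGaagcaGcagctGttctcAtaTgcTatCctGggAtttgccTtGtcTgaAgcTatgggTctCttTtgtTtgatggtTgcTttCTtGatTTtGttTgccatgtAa
ATP5G1 and ATP5G2 are identical at 89% of these bases, and ATP5G3 shares 81.1% with each. Short footprints from the first pair could be placed in either gene where no differing base falls within them: 32.3% and 31.6% of the 28-base stretches of ATP5G1 and ATP5G2 occur in another gene, against 8.46% for ATP5G3.

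ATP5G3 gave 57.1 to 64.4% of c subunit footprints in the 10 ER-Src libraries and 38 to 47.3% in the 6 BJ libraries, ATP5G2 19.4 to 24.7% and 39.6 to 43.4%, and ATP5G1 15.2 to 18.2% and 13.1 to 19.3%. The ranges of ATP5G3 and of ATP5G2 did not overlap between the models. In CPM, ATP5G3 had 309 and 311 in EH and 729 to 842 in uninduced ER-Src, a difference of 1.33 ± 0.12, whereas ATP5G2 had 259 and 272 in EH and 229 to 364 in uninduced ER-Src (0.03 ± 0.15, not called). From EH to ELR the share of ATP5G3 went from 47.3 and 45.5% to 38.1 and 38%, with all 3 genes called higher (0.46 ± 0.06 for ATP5G3, against 1.2 and 0.87 for ATP5G1 and ATP5G2). In RNA ATP5G2 held 53.6 to 56.4% in the BJ lines and 26.4 to 39.7% in ER-Src.

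Changes of footprints beyond those of RNA were called for few members, and those in the BJ lines rest on single RNA libraries with the spread of footprint replicates. From EH to EL 2 of 81 members were called, against 6.71% of genes (3.78% higher, 2.92% lower), and 17 had an unadjusted p under 0.05. ATP5E had 195 and 182 footprint CPM in EH and 267 and 266 in EL while its RNA was 122 and 110 CPM, a difference of changes of 0.67 ± 0.16 (adjusted p = 0.00202, edgeR). NDUFA9, a subunit near the ubiquinone site, had 147 in both EH libraries and 177 and 159 CPM in EL while its RNA was 53.5 and 105 CPM, giving −0.75 ± 0.19 (adjusted p = 0.00612, edgeR). Neither was called by DESeq2 (adjusted p = 0.0893 and 0.0923) or by edgeR with all 26 libraries in one fit (adjusted p = 0.546 and 0.514), so whether the change differed between the assays is not settled by these libraries. From EL to ELR no member was called by edgeR or DESeq2 (12 with an unadjusted p under 0.05; 2.97% of genes called, 1.03% higher and 1.94% lower), and none at 24 h of tamoxifen (6; 0.44% of genes called, 0.00898% higher and 0.431% lower). Between uninduced ER-Src and EH 1 was called (1.14% of genes, 0.716% higher and 0.42% lower; 10 with an unadjusted p under 0.05). This was NDUFS8, an iron-sulphur protein of complex I, with footprints at 178 and 190 CPM in EH and 142 to 193 in uninduced ER-Src and RNA at 19.8 and 34.9 to 40.2 CPM (−1.02 ± 0.25, adjusted p = 0.048, edgeR). That call was absent in 9 of the 10 fits that left out a library.

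Harringtonine libraries were the least deep, and 43 members could be tested in the BJ lines. From EH to EL 2 were called against 18.5% of genes (7.57% higher, 11.0% lower): NDUFS6, a zinc-binding subunit of complex I (27.7 and 0 CPM, then 75.1 and 70.7 CPM; 2.30 ± 0.76), and the gamma subunit ATP5C1 (120 and 30.4, then 188 and 167 CPM; 1.22 ± 0.4) rose. From EL to ELR NDUFB8 (1.08 ± 0.4), ATP5G2 (0.49 ± 0.18) and COX7A2 (0.37 ± 0.13) rose and ATP5C1 (−1.04 ± 0.33) and ATP5J2 (−0.69 ± 0.25) fell, 5 of 43 against 16.3% of genes (6.39% higher, 9.91% lower). DESeq2 called none of these. Leaving out 1 library left 0 to 2 called in each comparison, and without the second EH library NDUFS6 had 1.4 and ATP5C1 0.59, neither called. COX7A2 stood out in level, with 649 to 991 CPM under harringtonine in the BJ lines against 356 to 484 CPM under cycloheximide.

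Other genes of the pathway were taken from lists by role, and their counts stand beside the shares of all genes, which were 19.1% higher and 22.4% lower from EH to EL, 17.4% and 18.7% from EL to ELR, and 29.4% and 29.7% for uninduced ER-Src against EH. Of 39 assembly factors tested 9 rose and none fell from EH to EL (median 0.32), 10 rose and 3 fell from EL to ELR, and 21 were higher and none lower in uninduced ER-Src than in EH (median 0.63). Of 14 enzymes of the citric acid cycle, which feeds both complex I and complex II, 4 rose and 1 fell from EH to EL (median 0.15), 3 rose and 4 fell from EL to ELR, and 6 were higher and 1 lower in ER-Src. At the steps between the BJ lines the shares of risers in both lists were not far above those of all genes, while fewer of the assembly factors fell than of all genes. Of 14 genes for electron carriers and ubiquinone synthesis the same comparisons gave 3 and 0, 4 and 2, and 6 and 1. Of 9 tested regulators of mitochondrial biogenesis 2 rose and 2 fell from EH to EL and 4 rose and none fell from EL to ELR, and of 10 tested between models 5 were higher and none lower. Of 9 inner membrane carriers and related proteins 6 rose and none fell from EH to EL, 5 rose and 1 fell from EL to ELR, and at 24 h of tamoxifen 3 of 8 fell, where 5.84% of genes did. Footprints relative to RNA had lower medians in these lists than the 1.74 of the subunits in ER-Src: 0.66 for assembly factors, 0.57 for the citric acid cycle, 0.21 for carriers and ubiquinone synthesis, −0.08 for the regulators and 0.70 for the inner membrane proteins.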

How the data were processed

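The deposited files hold read counts per RefSeq transcript, which the authors made from reads aligned with TopHat to hg19, per the submitters' processing notes. The counting program and the counted region are not given in the sources used here. Of 36 libraries in 27 groups, 1 transcript per symbol (highest mean count) was kept. Counts were tested with edgeR 4.0.16 (quasi-likelihood, TMM scaling, filterByExpr with a minimum count of 10 and a minimum total of 15, two-sided, Benjamini-Hochberg over all genes, threshold 0.05) in R 4.3.3, in 17 comparisons, and the code was tested on simulated data. RNA arms with 1 library were assumed to vary like replicated arms. DESeq2 1.42.0, RLE size factors, no filter, other transcripts, a replicate block, shared spreads, ethanol-only controls and leaving out libraries were alternatives. Ratios of single RNA libraries used a pseudocount of 1 CPM and members at 10 CPM or more. Coding lengths came from GENCODE release 44 on GRCh37, and promoters from RefSeq.

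The members and gene lists were chosen with earlier results of these data known. Named members are up to 10 called in each direction per comparison, by log2 change, whose libraries did not overlap, and catalytic core genes; some results are not reported here. Leukocyte markers (6 genes) summed to 1.07 to 3.79 CPM in BJ and 10.8 to 47.9 CPM in ER-Src cycloheximide libraries, endothelial markers (5) to 0 to 8.24 and 0 to 3.74, and muscle markers (6) in ER-Src to 7.64 to 14.5 CPM.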

Additional observations from a re-analysis of the deposited data

Results flagged for a closer look

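Summed RNA of complex II in uninduced ER-Src was 280.4 CPM in the 0 h library, apart from 320.5, 325.1 and 327.8 CPM in the ethanol libraries of 1, 4 and 24 h. This was 1 of 24 groups of 4 libraries examined, and chance alone sets a library apart in about 5% of such groups.

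For 3 members edgeR's test of the interaction called a difference of changes between footprints and RNA, which was 0.67 for ATP5E and −0.75 for NDUFA9 from EH to EL and −1.02 for NDUFS8 between uninduced ER-Src and EH. EH and EL have a single RNA library each, and in the BJ fit the spread comes from footprint replicates alone. DESeq2 and the fit of all 26 libraries called neither ATP5E nor NDUFA9, and NDUFS8, which DESeq2 called, was not called by edgeR in 9 of the 10 fits that left out a library.

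The ER-Src harringtonine libraries entered no comparison, since each time has 1 library. Complex I summed to 3297 CPM at 24 h of tamoxifen, against 2226 at 0 h, 2208 at 1 h and 2064 at 4 h. Complex II had 345.9 CPM at 24 h and 219.5 at 0 h, complex III 978.7 and 919.7, complex IV 1904 and 1265, and complex V 3092 and 2545 CPM. The 24 h library was the highest of the 4 for each complex, and with no replicate the difference has no test.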

How the results depend on the processing

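No direction reversed among 105 named results under 1083 alternatives; 968 kept their call and 115 lost it. Of 187 alternatives to the counts of members called, 150 stayed within 1.5 times. DESeq2 called 34 from EH to EL, 17 from EL to ELR, 0 and 0 in the harringtonine comparisons and 0 in the change of footprints beyond RNA from EH to EL. One spread for all 16 cycloheximide libraries gave 26, 8 and 35 for EL against EH, ELR against EL and ELR against EH, and 9 at 24 h of tamoxifen. Without a filter there were 3 at 24 h and 0 for ELR against EL under harringtonine, and with ethanol libraries as the only controls 2 at 24 h. For footprints beyond RNA, RLE size factors gave 4 from EH to EL and 2 from EL to ELR, and all 26 libraries in one fit gave 0 from EH to EL. The shares of all genes called under the other settings are not given here, and the cause of these shifts was not tested.

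Replicate numbers were not taken to pair the samples, since same-numbered deviations did not correlate above 0.1 in every pair: over all genes they gave 0.01 to 0.04 in BJ cycloheximide, −0.03 to 0.03 in BJ harringtonine and −0.05 to 0.21 in ER-Src. Between 4 and 24 h of tamoxifen the value was 0.21, and 0.37 over the members. The replicate block gave 2 at 24 h (UQCRC1 at −0.35 was added) and moved no other count by over 1.5 times. Its share of all genes called is not given here.

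Leaving out 1 library gave 42 to 52 called for EL against EH, 24 to 27 for ELR against EL, 48 to 55 for ELR against EH, 0 to 2 in each harringtonine comparison, 0 to 10 at 24 h, 49 to 60 and 33 to 39 for uninduced ER-Src against EH in footprints and RNA, 77 to 79 and 80 to 81 for footprints against RNA in ER-Src and BJ, 2 to 4, 0 to 1 and 0 to 1 for footprints beyond RNA (EL against EH, ELR against EL, ER-Src against EH) and 0 elsewhere. The shares of all genes called in these fits are not given here. Plain totals left 23 of 70 complex sums within 1 SD. RNA groups of 1 library have no SD and all counted as moved, however small the shift, so this fraction overstates the effect of scaling. Harringtonine depth left 43 members to test.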
